A study of Mus musculus with 7 samples.

Results

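Globin genes, the erythroid gene Trim10 and genes of cellular iron handling were examined in mouse leukemia cells exposed to the compound BRD7116, for which the labels give a code name alone. The members were 10 of the 16593 genes named on the array, read by 14 of its 25697 probes, each probe kept apart: Hba-a1, Hbb-bt, Trim10, Tfrc, Slc11a2, Fth1, Ftl1, Slc40a1, Aco1 and Ireb2. Their probes were taken by gene symbol. The set was chosen by the measured differences between compound and vehicle, so these differences are given as a description and their tests lend no support.

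Per the labels, the cells were mouse leukemia stem cells, also called LSCe there, used fresh after isolation. The labels do not name the oncogene, the donor mice or the markers used for isolation. The treated group, BRD7116, had 5 arrays of cells held for 6 h in suspension with 5 µM compound in 0.2% DMSO. The vehicle group, DMSO, had 2 arrays of cells held for the same 6 h in 0.2% DMSO, and both groups were cultured in medium with 10% serum. The comparison asks which transcripts differ between compound and vehicle. Nothing in the labels says that replicates were separate cultures or animals, so the errors measure the spread between these arrays, which may be technical.

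The 7 arrays lay on 3 chips. Chip 1, with BRD7116 replicate 1 and DMSO replicate 2, was dim: 4585 and 4412 probes were detected on its arrays, against 6749 to 8451 on the others. BRD7116 replicate 2 shared chip 2 with DMSO replicate 1, and BRD7116 replicates 3, 4 and 5 made up chip 3. The main values of the member genes are therefore also given within chips 1 and 2, where 1 array of each group can be compared. The myeloid progenitor markers Prtn3, Ctsg, Elane and Mpo were detected on all 7 arrays, and Cd34 was detected on none.

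Red cell precursors build hemoglobin from alpha and beta globin chains and heme, and take up iron for it through the transferrin receptor. Every dividing cell also imports iron in this way and stores the surplus in ferritin. Cells that express ferroportin export iron through it. The iron regulatory proteins, encoded by Aco1 and Ireb2, sense iron and bind iron responsive elements in messenger RNAs. When iron is scarce they stabilise the Tfrc transcript and hold back translation of ferritin. Tfrc thus responds in the amount of its RNA, while the ferritins respond mainly in their protein, which an RNA array does not read.

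The upstream sequences of both globin genes and of Tfrc are shown because these are the members whose RNA defines red cell content and iron uptake. They come from RefSeq, build GRCm38.p6, cover the 250 bases before the annotated start and are written 5′ to 3′. Capitals mark GATAA, the core bound by GATA factors, and CACCC, the core bound by erythroid Krueppel-like factors, each searched on both strands (TTATC and GGGTG on the other strand). Hba-a1 lies at chr11:32283422-32283671 on the plus strand, Hbb-bt at chr7:103813924-103814173 on the minus strand and the first of 2 annotated Tfrc starts at chr16:32608646-32608895 on the plus strand.
Hba-a1: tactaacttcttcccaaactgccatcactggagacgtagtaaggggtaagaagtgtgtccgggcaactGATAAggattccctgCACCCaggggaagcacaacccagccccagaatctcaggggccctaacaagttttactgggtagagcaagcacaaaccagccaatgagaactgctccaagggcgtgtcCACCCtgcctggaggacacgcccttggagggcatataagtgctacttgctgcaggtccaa
Hbb-bt: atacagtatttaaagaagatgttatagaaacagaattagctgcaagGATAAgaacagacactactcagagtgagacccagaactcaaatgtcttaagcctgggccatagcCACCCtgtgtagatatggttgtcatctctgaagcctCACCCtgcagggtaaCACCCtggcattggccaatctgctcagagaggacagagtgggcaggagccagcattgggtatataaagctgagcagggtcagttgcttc
Tfrc: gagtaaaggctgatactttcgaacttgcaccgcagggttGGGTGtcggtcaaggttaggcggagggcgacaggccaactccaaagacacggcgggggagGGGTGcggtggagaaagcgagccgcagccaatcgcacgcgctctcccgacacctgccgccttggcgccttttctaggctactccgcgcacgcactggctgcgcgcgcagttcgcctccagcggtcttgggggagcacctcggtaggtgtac

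Hba-a1 held 1 GATAA beginning 182 bases upstream of its start, with CACCC at 167 and 60 bases. Hbb-bt held 1 GATAA and 3 CACCC, and the Tfrc window held 2 CACCC, read on the other strand, and no GATAA. Trim10 held 1 GATAA and 2 CACCC. Over all 32851 windows of this length in the table, 22.6% held GATAA, 52.0% held CACCC and 10.1% held both, as the windows of Hba-a1, Hbb-bt, Trim10 and 1 of the 2 Fth1 windows did. A match describes letters and is not evidence of binding. The table's 300-base windows of Hba-a1 and its neighbouring copy Hba-a2 shared an unbroken run of 297 bases, and the alpha globin transcripts are near-identical too, so the Hba-a1 probe may read both genes.

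A probe counts as detected where its detection p, which compares it with the negative controls of its array, is under 0.05. Of the 14 probes, 6 were detected on all 7 arrays: Hba-a1, both Tfrc probes, both Fth1 probes and Slc40a1. Ireb2 was detected on 4 of 5 BRD7116 arrays and 1 of 2 DMSO arrays. Slc11a2 and 1 Trim10 probe were each detected on 1 array of each group. The other 5 probes, those of Hbb-bt, Ftl1 and Aco1 and 2 of the 3 Trim10 probes, were detected on no array. They have no measured level, and 3 of the 10 genes are represented only by them.

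**Figure D1:**
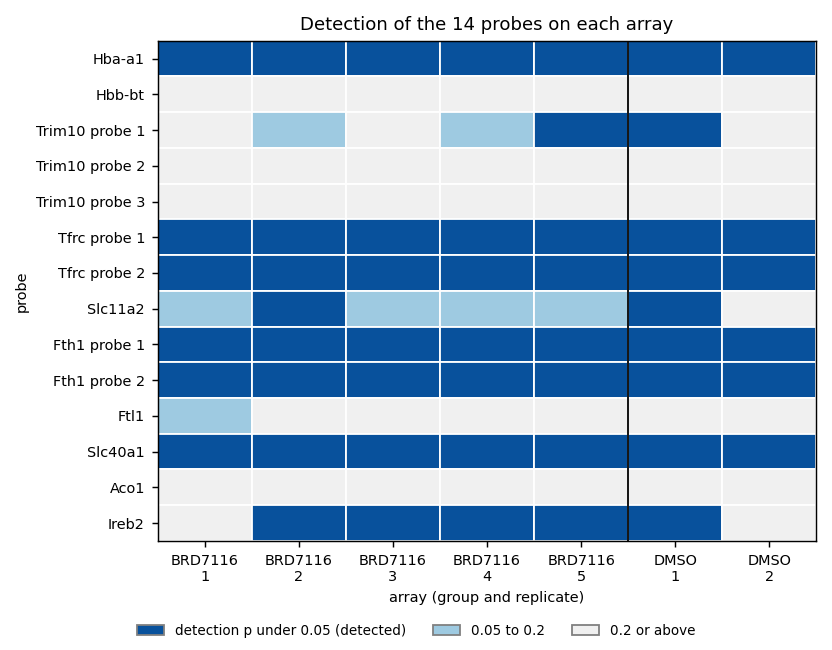
Detection of the 14 probes (rows) on the 7 arrays (columns, BRD7116 left of the line and DMSO right of it), coloured by detection p. The 6 fully dark rows are Hba-a1, Tfrc, Fth1 and Slc40a1, and the rows of Hbb-bt, Ftl1 and Aco1 hold no detected array.

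Levels are given as log2 intensity after background correction and quantile normalization. Before the single genes, the fit over all 8613 probes detected on at least 2 arrays gives the scale. With limma, 0 of the 8613 (0%) passed a Benjamini-Hochberg adjusted p of 0.05, and 577 (6.7%) had an unadjusted p under 0.05 (3.41% lower and 3.29% higher with BRD7116). None of the 9 measured member probes passed, with adjusted p from 0.685 to 0.976, and 2, Hba-a1 and Tfrc probe 1, had an unadjusted p under 0.05. Of the 9, 7 had a lower mean with BRD7116, against 42.7% of all probes, and their median log2 fold change was -0.17, against 0.06 over all probes. The 0.06 depends on the detection filter. Without a filter the median was 0.003 over all probes and -0.10 over the 14 member probes. Among probes detected on all 7 arrays it was -0.02 over all and -0.34 over 6 member probes. For 2 of the 9, every BRD7116 array lay below both DMSO arrays, as for 5.12% of all probes, and for none did every BRD7116 array lie above both, as for 5.7%. These counts are given only as a description, since the same contrast led to the choice of the genes.

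Alpha globin, the oxygen carrier's alpha chain, showed the largest difference of the 9 measured probes. Hba-a1 (probe ILMN_1212702) had levels of 7.01, 7.35, 7.23, 6.83 and 7.40 in BRD7116 replicates 1 to 5, against 8.15 and 7.97 in DMSO replicates 1 and 2. The groups did not overlap: the highest treated array lay below the lower vehicle array. Hba-a1 averaged 7.16 ± 0.24 with BRD7116 (SD, n = 5) and 8.06 ± 0.13 with DMSO (SD, n = 2). The log2 fold change was -0.89 (standard error 0.21, 95% interval -1.37 to -0.41), a level 46.1% lower. By this estimate it ranked 106th from the lowest of 8613.

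The lower alpha globin level was seen on both chips that held both groups. Within chip 1 the difference was -0.96 and within chip 2 it was -0.79, each from 1 array of each group. The scanner intensities before any correction were 194 for BRD7116 and 255 for DMSO on chip 1, and 477 for BRD7116 and 522 for DMSO on chip 2. With chip as a block the log2 fold change was -0.87. The value was -0.51 without background correction and -0.46 in the authors' deposited values. It was -0.04 with median scaling and 0.02, with the direction turned, without normalization between arrays, where the median of all probes was 0.53 and 0.59. In a bulk sample, fewer cells of a type and less RNA per cell cannot be told apart.

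Beta globin was not measured above background. Hbb-bt, an adult beta globin gene (probe ILMN_1235372), had scanner intensities of 137 to 189, and its lowest detection p on any array was 0.259. The probe of Hbb-b2, the other adult beta globin on the array, had a lowest detection p of 0.880. Of the embryonic globins, Hba-x and Hbb-bh1 were detected on no array, and 1 of the 2 Hbb-y probes was detected on 1 DMSO array. Alpha globin was therefore the only globin detected on more than 1 array.

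Trim10, a RING finger protein of the erythroid lineage, lay near background. Its brightest probe (ILMN_2467559) had levels of 5.24, 5.09, 4.92, 5.09 and 5.33 in BRD7116 replicates 1 to 5, against 5.77 and 5.19 in DMSO replicates 1 and 2. DMSO replicate 1 was the highest array, and DMSO replicate 2 lay within the treated range. The log2 fold change was -0.35 (standard error 0.22, 95% interval -0.84 to 0.15). Within chip 1, where neither array detected the probe, the difference was 0.05, and within chip 2 it was -0.68. Leaving out DMSO replicate 2 gave -0.71, leaving out DMSO replicate 1 gave -0.05 and leaving out the dim chip gave -0.84. The authors' deposited values gave -0.12.

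Other red cell genes were mostly undetected. Of 20 erythroid markers, 14 had a probe, and Hba-a1, Tfrc and Trim10 were the only ones with a probe detected on at least 2 arrays. Gata1, Epb42 and Rhag were each detected on 1 array. Alas2, the erythroid enzyme that begins heme synthesis, and Klf1, Slc4a1, Epor, Car2 and Kel were detected on none. The summed level of all the marker probes, on the linear scale and with the background floor of each probe included, was 1074 to 1300 with BRD7116 and 1451 to 1718 with DMSO. Without the member genes it was 376 to 427 with BRD7116 and 393 to 439 with DMSO. None of these 14 other probes was detected on more than 1 array. This second sum therefore reads mainly background, and its overlap between the groups carries no information on red cell content. The first sum includes member genes, which were chosen by the same contrast. The part of red cell precursors in the Hba-a1 difference was not tested.

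The transferrin receptor gene had a lower mean with BRD7116 on both of its probes, a direction that turned under median scaling, as given further on. Tfrc probe 1 (ILMN_2619848) had levels of 8.49, 8.60, 8.09, 8.07 and 8.26 in BRD7116 replicates 1 to 5, against 9.09 and 8.83 in DMSO replicates 1 and 2. All 5 treated arrays lay below both vehicle arrays. It averaged 8.30 ± 0.24 with BRD7116 (SD, n = 5) and 8.96 ± 0.19 with DMSO (SD, n = 2), which is a difference of -0.66 in log2 (standard error 0.21, 95% interval -1.15 to -0.17) and a level 36.6% lower. Within chip 1 the difference was -0.34 and within chip 2 it was -0.49.

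Tfrc probe 2 (ILMN_2860804) had levels of 6.92, 7.81, 7.52, 7.67 and 7.65 in BRD7116 replicates 1 to 5, against 8.46 and 7.59 in DMSO replicates 1 and 2. Here the groups overlapped, since DMSO replicate 2 on the dim chip lay below 3 treated arrays, while BRD7116 replicate 1 on the same chip was the lowest of all. The log2 fold change was -0.51 (standard error 0.31, 95% interval -1.22 to 0.19). Within each chip the treated array was lower, by -0.67 on chip 1 and -0.65 on chip 2. Without DMSO replicate 1 the value was -0.07 and without DMSO replicate 2 it was -0.95. The mean of both probes gave -0.58 (standard error 0.22).

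Slc11a2, the divalent metal transporter DMT1 that moves iron out of the endosome after transferrin uptake, was close to background. Its levels (probe ILMN_2665063) were 5.51, 5.58, 5.06, 5.34 and 5.20 in BRD7116 replicates 1 to 5, against 5.67 and 5.05 in DMSO replicates 1 and 2. The vehicle arrays spanned the whole treated range. The log2 fold change was -0.02, and its 95% interval of -0.56 to 0.52 leaves room for a sizeable difference in either direction. The value was -0.37 without DMSO replicate 2, 0.29 without DMSO replicate 1 and -0.47 without the dim chip. The gene makes transcripts with and without an iron responsive element, and the files do not say which the probe reads.

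**Figure D2:**
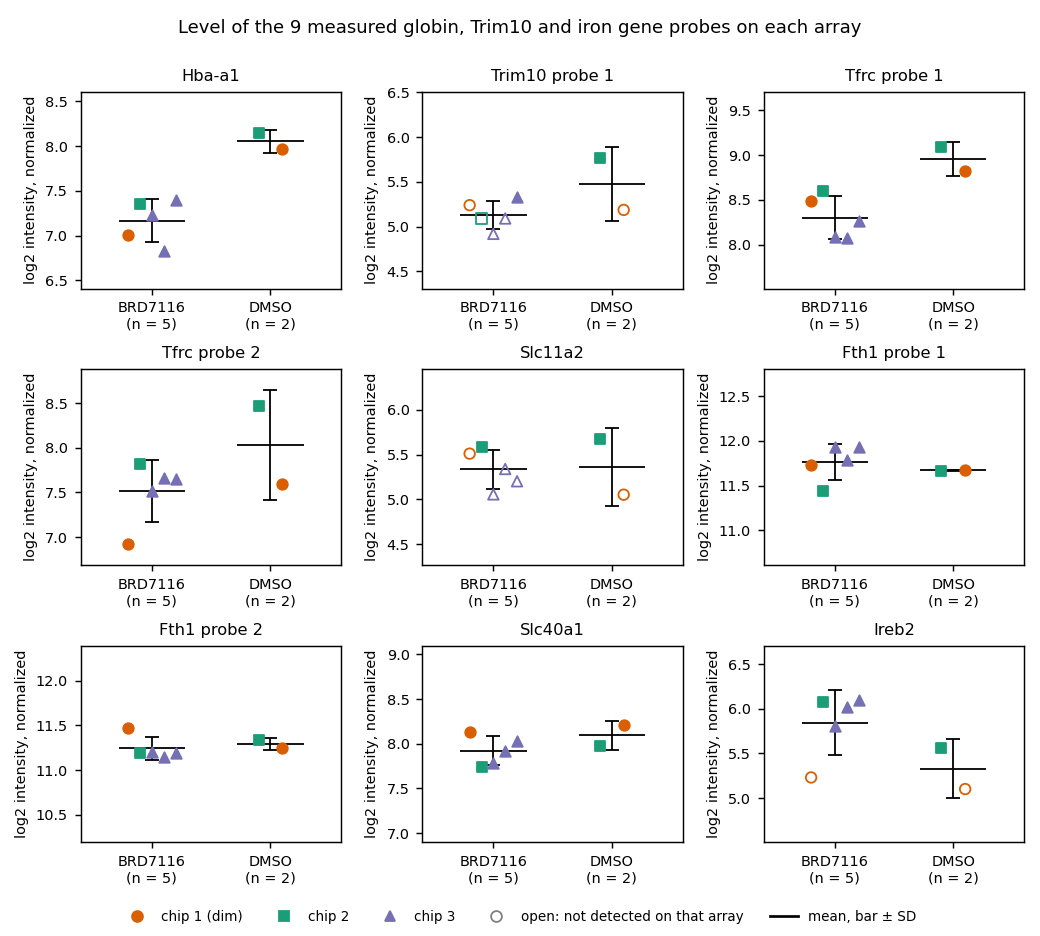
Normalized log2 intensity of the 9 measured probes on each array, with BRD7116 (n = 5) left of DMSO (n = 2), the mean as a line and ± SD as a bar. All panels span the same number of log2 units, shape and colour give the chip, and open symbols are arrays without detection. Hba-a1 and Tfrc probe 1 are the panels in which the groups do not overlap.

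The ferritin heavy chain gene was detected on every array, and the groups overlapped on both of its probes. Fth1, which encodes the ferroxidase subunit of the iron store, had levels on probe 1 (ILMN_2876066) of 11.73, 11.44, 11.94, 11.79 and 11.94 in BRD7116 replicates 1 to 5, against 11.66 and 11.67 in DMSO replicates 1 and 2. Probe 2 (ILMN_2876071) had 11.47, 11.19, 11.20, 11.15 and 11.19 in BRD7116 replicates 1 to 5, against 11.34 and 11.24 in DMSO replicates 1 and 2. On probe 1 the vehicle arrays lay inside the treated range, and on probe 2 they lay above 4 of the 5 treated arrays and below BRD7116 replicate 1. The log2 fold changes were 0.10 for probe 1 (95% interval -0.35 to 0.54) and -0.05 for probe 2 (95% interval -0.45 to 0.35). The probes also did not vary together across the 7 arrays (Pearson's r = -0.15, as a description).

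Ftl1, the ferritin light chain gene, was read by a single probe (ILMN_2816707) with intensities of 130 to 190 and a lowest detection p of 0.135. No level of the light chain can be given. An undetected probe does not show that the transcript was absent.

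Slc40a1 encodes ferroportin, the only known cellular iron exporter, which macrophages and red cell precursors express. Its levels (probe ILMN_2747923) were 8.13, 7.74, 7.79, 7.92 and 8.03 in BRD7116 replicates 1 to 5, against 7.98 and 8.21 in DMSO replicates 1 and 2. The groups overlapped. It averaged 7.92 ± 0.16 with BRD7116 (SD, n = 5) and 8.09 ± 0.16 with DMSO (SD, n = 2), which is a difference of -0.17 in log2 (standard error 0.19, 95% interval -0.60 to 0.25). The differences were -0.08 within chip 1 and -0.24 within chip 2. The value was -0.06 without DMSO replicate 2 and -0.29 without DMSO replicate 1, and its direction turned to 0.67 with median scaling and 0.73 without normalization between arrays.

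Of the iron regulatory proteins, only that encoded by Ireb2 had a measured transcript. Ireb2 encodes IRP2, which is broken down when iron is plentiful. Its levels (probe ILMN_3161612) were 5.23, 6.07, 5.80, 6.02 and 6.10 in BRD7116 replicates 1 to 5, against 5.56 and 5.10 in DMSO replicates 1 and 2. The 4 treated arrays outside the dim chip were above both vehicle arrays, and the 2 arrays of the dim chip, neither of which detected the probe, were the lowest of the 7. The log2 fold change was 0.51 (standard error 0.28, 95% interval -0.12 to 1.14), with 0.13 within chip 1, 0.51 within chip 2 and 0.16 in the authors' deposited values. Aco1, which encodes the cytosolic aconitase that becomes IRP1 when it loses its iron-sulfur cluster, was detected on no array (intensities 132 to 197, lowest detection p 0.244).

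**Figure D3:**
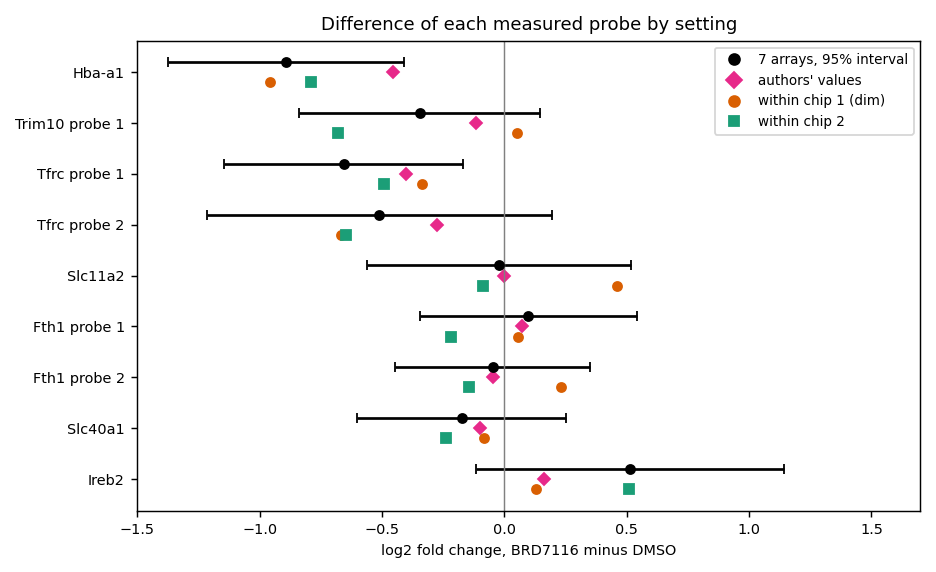
Log2 fold change, BRD7116 minus DMSO, of the 9 measured probes: over 7 arrays with the 95% interval (black), in the authors' deposited values, and within chips 1 and 2. Hba-a1 and both Tfrc probes lie left of 0 in each of the 4 estimates, as does Slc40a1 by smaller amounts, and Ireb2 lies right of 0 in each.

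Of 12 probes for transcripts with iron responsive elements, 6 were measured, all of them for the member genes Tfrc, Fth1, Slc40a1 and Slc11a2. Of these 6, 5 had a lower mean and 1 a higher mean with BRD7116, against 42.7% lower among all probes, and none passed the threshold. As member genes were chosen by this contrast, the count does not describe iron responsive transcripts in general. Alas2, Epas1 and Cdc14a, other carriers of the element, were detected on no array. The median of the 6 was -0.11, against 0.06 for all probes. It was -0.32 without the dim chip, -0.23 without DMSO replicate 2 and -0.07 without DMSO replicate 1, where 5 probes were fitted. Relative to the median of all probes it was -0.18, and -0.01 with median scaling.

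Scaling set part of this picture. When arrays were scaled to a common median and not quantile normalized, the median of all probes was 0.53. Hba-a1 then had -0.04 and Tfrc 0.17 and 0.37, so the sign of both Tfrc probes turned. Relative to the shift of all probes Hba-a1 had -0.57, Trim10 -0.81, Tfrc -0.36 and -0.16 and Ireb2 0.26. Before this subtraction Trim10 and Slc11a2, both near background, had -0.28 and -0.02. The bright Fth1 probes had 0.93 and 0.69, and Ireb2 had 0.79. A single median may thus not describe the shift of probes near background. In the same scaling the relative values of Slc40a1 (0.14) and Fth1 probe 2 (0.16) lay above 0, where relative to the 0.06 of quantile normalization they were -0.24 and -0.11. The relative value of Fth1 probe 1 was 0.40, against 0.03 with quantile normalization, and that of Slc11a2 was -0.55, against -0.09.

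Heme synthesis genes were mostly measured and none passed the threshold. Of 17 measured probes for 11 genes, 13 had a higher mean and 4 a lower one, against 42.7% lower among all probes. Their median was 0.15, or 0.08 relative to the median of all probes, and the relative value was -0.04 with median scaling. The measured probes of Slc25a39, Fech and Uros and Ppox probe ILMN_2826816 were detected on BRD7116 arrays alone. They thus entered the count only through the group in which they were higher. Alas1, the housekeeping form of the first enzyme, differed by 0.29 (standard error 0.20), and Urod, a later enzyme, had 0.04 (standard error 0.18). Tmem14c, a mitochondrial porphyrin transporter, had 0.15 and 0.28 on its brightest probes, the first of which turned to -0.25 without DMSO replicate 2.

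The remaining erythroid list added 6 measured probes to that of Trim10. Of these 6, 4 had a lower mean, against 42.7% lower among all probes, and none passed. Nfe2, a globin gene activator that myeloid progenitors and megakaryocytes also express, had 0.57 (standard error 0.20), with all treated arrays above both vehicle arrays. Bnip3l, which directs removal of mitochondria in red cells and is widely expressed, had -0.22. Ank1, a red cell membrane skeleton gene, had -0.25 on its measured probe, detected on 1 array of each group, with all treated arrays below both vehicle arrays. Ubac1 had -0.43 on 1 probe and 0.42 on the other, and Mgst3 had -0.19. Without DMSO replicate 2 these turned to 0.13, -0.48 and 0.27, and the median of the whole list, Trim10 included, was -0.02, against -0.22 over all arrays.

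Genes of iron uptake, trafficking and control other than Ireb2 had a lower mean on 6 of 12 probes, against 42.7% lower among all probes. Steap4, at -0.92, was detected on 2 DMSO arrays and no BRD7116 array. Heph probe ILMN_2726128, at 0.27, was detected on 3 BRD7116 arrays and no DMSO array. Each thus entered only through the group in which it was higher. Snx3, at -0.03, was detected on 2 BRD7116 arrays alone. At an unadjusted limma p under 0.05, 3 were lower and 0 higher (3.41% and 3.29% of all probes). These 3 were Steap4, Ltf and another Heph probe (-0.67). The neutrophil siderophore-binding protein gene Lcn2 had -0.17 (standard error 0.16) and the iron-binding granule protein gene Ltf had -0.66 (standard error 0.26). For Lcn2 all treated arrays lay below both vehicle arrays, as for 5.12% of all probes, while for Ltf the groups overlapped. Both are also neutrophil granule genes. The iron chaperone gene Pcbp1 had 0.09 and the mitochondrial iron importer gene Slc25a28 had 0.03. None passed the threshold.

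Iron-sulfur cluster genes had a higher mean on 10 of 12 probes and a lower mean on 2, against 42.7% lower among all probes, with a median of 0.09 and none past the threshold. The median turned to -0.07 without the dim chip and to -0.07 without DMSO replicate 2, and was 0.36 without DMSO replicate 1. The scaffold gene Iscu had -0.15, its chaperone gene Hspa9 had 0.01 and 0.04, and Nubp1 had 0.04. In the list of heme degradation and export, 4 of 9 probes were higher and 5 lower, against 42.7% lower among all probes. The median was -0.01 and none passed the threshold. Bach1, at 0.10, was detected on 3 BRD7116 arrays and no DMSO array. It thus entered only through the group in which it was higher. The haptoglobin gene Hp of this list had -0.37, -0.01 and 0.25 on 3 probes. The third turned to -0.37 without DMSO replicate 2. On the first Hp probe all treated arrays lay below both vehicle arrays, as for 5.12% of all probes. The biliverdin reductase gene Blvrb had -0.09.

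Markers of other cell types were sparse. Of the macrophage markers, Cd163, Spic, Marco, Mrc1 and the C1q genes were detected on no array, while Vcam1, at 0.96 (standard error 0.35), was measured and the 3 Adgre1 probes had -0.04, 0.36 and 0.51. Vcam1 was detected on all 5 BRD7116 arrays and 1 of 2 DMSO arrays, and its value was 0.22 without DMSO replicate 2 and 1.65 without DMSO replicate 1. The Adgre1 probes with 0.36 and 0.51 were each detected on 3 BRD7116 arrays and no DMSO array. They thus entered only through the group in which they were higher. The summed level of the macrophage list, with the background floor of each probe included, was 530 to 600 with BRD7116 and 429 to 516 with DMSO. Of its 13 probes, 9 were detected on no array. The megakaryocyte gene Pf4, at -0.68 (standard error 0.32), was detected on 1 array of each group, and its value was -0.03 without DMSO replicate 2 and -1.30 without DMSO replicate 1. For B cells only Cd79b was measured (0.09 and 0.33, which turned to -0.21 and -0.67 without DMSO replicate 2), and for T and NK cells only Nkg7 (-0.22), which myeloid cells also express. Of the myeloid progenitor markers, Prtn3 had -0.13, Ctsg -0.14, Elane -0.10 and the 3 Mpo probes 0.18, -0.32 and 0.26. On the second Mpo probe all treated arrays lay below both vehicle arrays, and the third turned to -0.15 without DMSO replicate 2. Fcgr3 had 0.43, and Itgam, detected on 2 BRD7116 arrays and no DMSO array, had 0.35. Of the 8 measured probes of this list, 4 were higher and 4 lower, against 42.7% lower among all probes, with a median of 0.04. The part of other cells in the Hba-a1, Tfrc and Slc40a1 values was not tested.

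**Figure D4:**
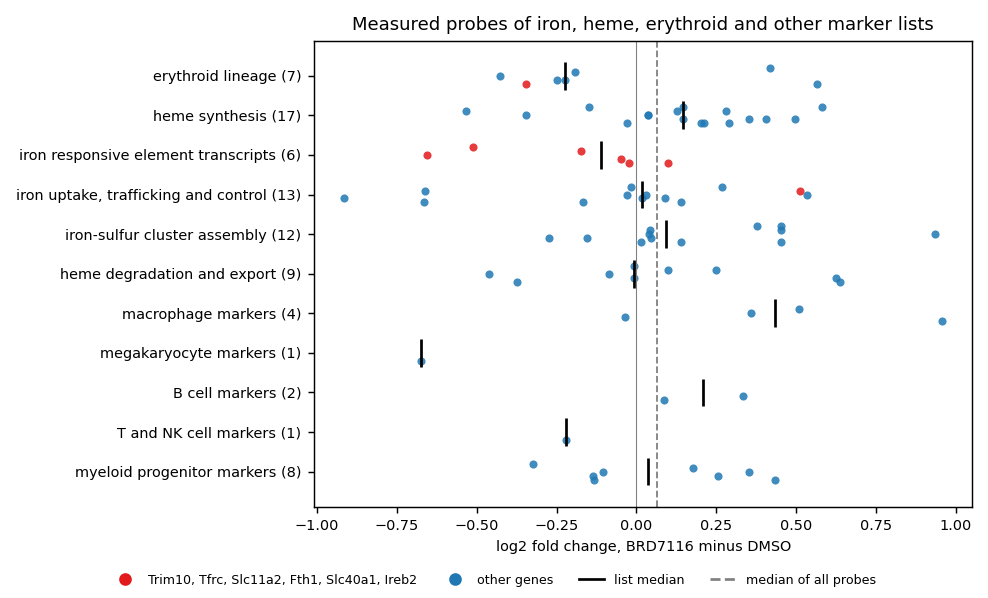
Log2 fold change, BRD7116 minus DMSO, of each measured probe in the iron, heme, erythroid and cell type lists, with the number of probes in brackets. Red points are the member genes, black bars the list medians and the dashed line the median of all 8613 probes, 0.06. No point passed an adjusted p of 0.05.

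Among 2919 other named probes detected on all 7 arrays, the 3 whose levels followed Hba-a1 most closely were those of Ndufb7, Farsb and Rassf2, with Pearson's r of 0.98, 0.95 and 0.94. For Tfrc probe 1 they were Ccs, Eif2b5 and Sec22c, with 0.96, 0.96 and 0.94. The second Tfrc probe followed the first with an r of 0.51. These are descriptions over 7 arrays that share chips and groups.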

How the data were processed

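Total RNA of 5 BRD7116 and 2 DMSO arrays was biotin-labelled and hybridised to Illumina mouse BeadChips, as the labels' protocols state. The authors deposited 1 intensity per probe and array, described as not normalized per the file headers. A detection p-value stands beside each deposited intensity. The authors also deposited log2 values with a median of 7.52 in each column. How these were made is not given in the sources used here, and they served as an alternative.

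The negative controls' mean and spread were inferred from the detection p-values for the background correction (neqc of limma 3.58.1 in R 4.3.3, offset 16). The corrected values were taken to log2 and then quantile normalized. The 8613 probes detected (p under 0.05) on 2 or more arrays were compared with lmFit and eBayes, two-sided, with Benjamini-Hochberg adjustment over all of them. This fit took the arrays as independent, while the correlation estimated within chips was 0.53. For Hba-a1 the standard error was 0.21 in this fit, 0.22 with chip as a fixed block and 0.20 with chip as a random block. An exact permutation of 7 arrays cannot go below p = 0.0952 and was not used. Symbols came from the platform annotation, and 1719 probes had none. The fit was tested on simulated data. Alternatives covered background correction, scaling, detection filter, probes per gene, prior, array weights, chip and single arrays.

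The members and lists were chosen with earlier results of these data known. The text names every member probe, up to 4 probes of the highest level from each other list, and the 3 probes most like Hba-a1 and Tfrc probe 1. Undetected list genes, and the other probes of a gene already named, were named after their values were seen. The same holds for Ank1, Slc25a39, Fech, Uros, Ppox, Steap4, Heph, Snx3, Bach1, Fcgr3 and Itgam. Replicate numbers were not taken as pairs, since no label ties equal numbers and these lay on different chips. With 2 DMSO arrays, whose deviations from their mean mirror each other, the data cannot show whether the numbers pair.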

Additional observations from a re-analysis of the deposited data

Results flagged for a closer look

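In each of the 14 probes the 5 BRD7116 arrays were searched for an array that stood apart from the other 4, where chance marks about 1 in 20 groups. It did so for 2 probes, both times in BRD7116 replicate 1, an array of the dim chip. Fth1 probe 2 had a level of 11.47 there, against 11.15 to 11.20 on the other 4. Ftl1 had 5.46 there, where it was not detected, and at most 4.83 on the other 4.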

How the results depend on the processing

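No member probe passed an adjusted p of 0.05 in any of the alternatives run. Over all probes the count was 0 by default, 2 without background correction and with the trended robust prior, 1 with normexp, with offset 50, with cyclic loess, in the authors' values, without a detection filter, with detection on all 7 arrays, with chip as a random block and without the dim chip when the normalization over 7 arrays was kept (added after the data were seen), and 0 to 634 when 1 array was left out. The 634 came without DMSO replicate 1, when the dim array was the only control and its spread was taken to equal that of BRD7116, and 5 of the iron, heme and erythroid list probes were then among them (range 0 to 5). With the replicate number as a block 0 probes passed, and 5 lower and 11 higher had an unadjusted p under 0.05. Median scaling left 32 higher and 0 lower at that level, against 283 higher and 294 lower by default. When 1 array was left out, Hba-a1 had -0.99 to -0.79, Tfrc -0.79 to -0.52 and -0.95 to -0.07, and Ireb2 0.32 to 0.75. Without the dim chip, normalized anew, these were -0.97, -0.84, -0.79 and 0.57. Relative to the median of all probes, Hba-a1 and Tfrc stayed below 0 and Ireb2 above 0 in each alternative that fitted them. The median half-width of the 95% interval, which is not adjusted for the number of probes, was 0.58, and 0.47 for probes detected on all arrays. Smaller differences could mostly not be told from 0 even without adjustment. These widths do not give the size that would pass the adjusted threshold: Hba-a1, at -0.89, had a limma adjusted p of 0.685.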
